A study of Mus musculus with 2 samples.

Results

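Chemokines were examined in perivascular cells (PVCs) of the mouse aorta, cultured from wild-type (WT) mice and from mice lacking Kai1. The members were all gene symbols formed from Ccl or Cxcl and a number, together with Cx3cl1, Xcl1, Pf4 and Ppbp. This rule found 38 of the 20211 symbols listed, on 39 rows, since Ccl19 stood on more than 1 row and was averaged. RNA was sequenced from 1 WT library and 1 Kai1 KO library, both of C57BL/6 background, from primary PVCs grown in DMEM with fetal bovine serum and no other treatment named in the labels. Kai1, also called Cd82, encodes a tetraspanin membrane protein, and the comparison asks which transcripts differ when it is deleted. How the deletion was made, the age and number of the animals behind each library and whether animals were pooled are not given for these libraries in the sources used here.

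Chemokines are small secreted proteins that guide migrating cells by binding G protein-coupled receptors, and their families are named for the spacing of conserved cysteines: CC, CXC, CX3C and C. In the vessel wall, smooth muscle cells, pericytes and fibroblasts are known sources of Ccl2, which attracts monocytes, of Cxcl1, which attracts neutrophils, and of Cxcl12, which retains haematopoietic cells and guides endothelial cells. Several chemokine genes are kept silent in resting cells and are switched on through NF-kB or interferon signalling.

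The values are RPKM, in which the reads of a gene are divided by a transcript length and by the depth of the library. Low values in both libraries came closest to whole reads with 200 bases taken off the transcript length. Levels of short and long genes are therefore compared only roughly. The ratio of Kai1 KO to WT is given as log2((RPKM + 0.1)/(RPKM + 0.1)), which understates differences of low genes. Genes whose RPKM averaged 1 or more across the pair of libraries (10068 genes) were kept, and a difference of more than 2-fold is written as a rise or a fall. With 1 library per genotype there is no replicate check and no test, so each difference is one between 2 libraries, and genotype, animal, culture and library preparation cannot be told apart. Reads per gene were estimated from the steps of low RPKM values, which put about 29600000 reads behind the WT library and 26700000 behind the Kai1 KO library. Intervals on a fold come from these estimated reads, are 95% exact conditional intervals and cover counting error only.

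The targeted gene Cd82 was at 12.8 RPKM in WT and 2.62 in Kai1 KO, a log2 ratio of -2.25. The 4 Y-linked genes looked up were above 0 in the WT library and listed at 0 in the Kai1 KO library. Ddx3y, the highest of them, was at 6.56 RPKM in WT. The sex of the animals behind the libraries may therefore differ, and it cannot be told apart from genotype. Of 12 mural cell markers, Acta2 was at 3823 and 2580 RPKM, Pdgfrb at 44.7 and 31.6, and Cspg4 (NG2) at 15.4 and 8.27. The pericyte markers Rgs5, at 0.0630 and 0.233, and Abcc9, at 0.0411 and 0.0303, were near 0, and Kcnj8 was listed at 0 in WT and at 0.791 in Kai1 KO. Of 7 mural markers kept, 4 fell: Mcam from 4.90 to 0.264 RPKM, Myh11 from 2.96 to 0.346, Cnn1 from 119.6 to 49.2 and Tagln from 632.5 to 306.7. Of 7 fibroblast markers kept, 3 fell (Col1a2, Ly6a and Pdgfra). Col3a1 and Thy1 were higher in Kai1 KO and Col1a1 and Dcn lower, all within 2-fold. Among all genes kept, 7.81% fell and 7.98% rose. All 10068 genes kept had a median log2 ratio of 0.08. Scaled to Gapdh, at 4238 and 5997 RPKM, this median moved to -0.41.

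The PVCs carried a narrow set of chemokine transcripts, and members of this set were higher or lower in the Kai1 KO library. Cxcl12, Ccl2, Ccl7, Cxcl1 and Ccl8 made up 94.1% of the summed chemokine RPKM of 849.1 in the WT library. In the Kai1 KO library the sum was 714.4, and Cxcl14 took the place of Ccl8 among the leading 5, which made up 91.5%. Of the 38 chemokines, 16 were kept, of which 4 rose (Cxcl14, Cxcl15, Cx3cl1 and Cxcl1), 3 fell (Ccl8, Ccl20 and Pf4) and 9 stayed within 2-fold. Among all genes kept, 7.98% rose and 7.81% fell. Scaled to Gapdh, 2 chemokines rose and 4 fell, and with the upper quartiles of both libraries made equal, 4 rose and 4 fell. The median log2 ratio of the 16 was -0.15. Of 9 CC chemokines kept, none rose and 2 fell, with a median of -0.44. Of 6 CXC chemokines kept, 3 rose and 1 fell, with a median of 0.62. The filter shapes these family counts. Cxcl14, Cxcl15 and Pf4 passed it through the 1 library where they were high. Of members not kept, the CC gene Ccl11 and the CXC gene Cxcl17 had log2 ratios of 1.69 and 2.76. Cxcl2, Cxcl5, Ccl6, Ccl19 and Ccl27b were listed at 0 in Kai1 KO, with log2 ratios from -3.73 to -1.40. A difference between the families was not tested. The summed RPKM of the 21 CC genes was 410.7 in WT and 225.1 in Kai1 KO, and that of the 15 CXC genes was 436.5 and 484.0. The RPKM of all symbols summed to 884463 in WT and 1238190 in Kai1 KO. As a share of these totals, the chemokines made up 0.0960% in WT and 0.0577% in Kai1 KO, the CC genes 0.0464% and 0.0182%, and the CXC genes 0.0494% and 0.0391%, so that the order of the CXC sums is turned when they are read against the totals.

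**Figure D1:**
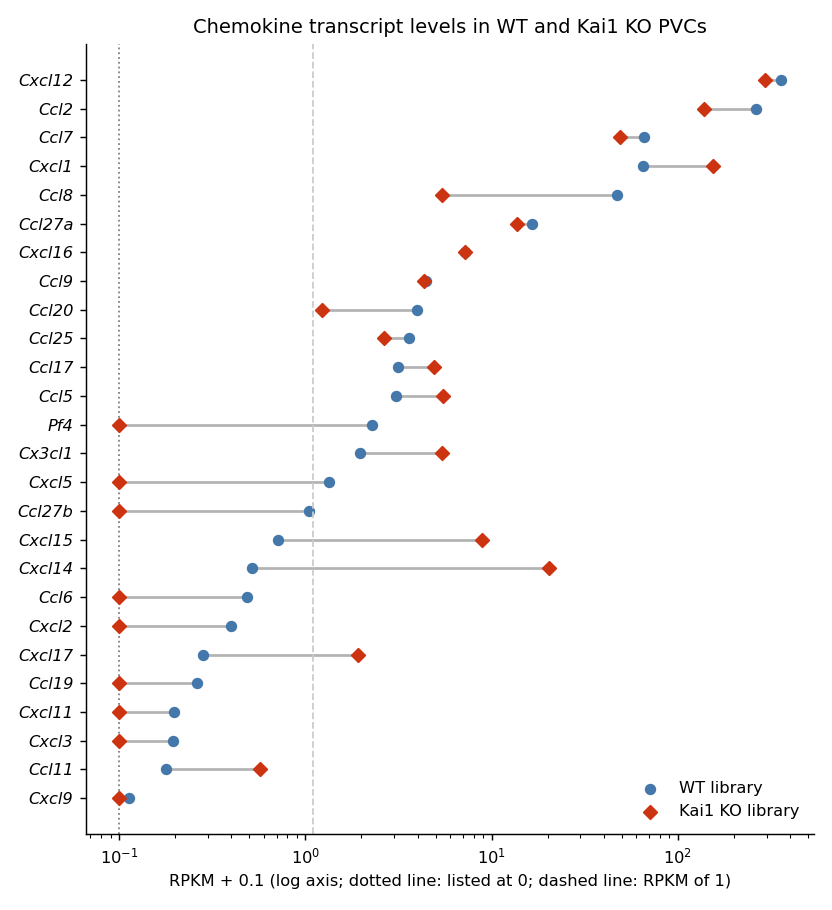
RPKM + 0.1 of the 26 chemokines above 0 in at least 1 library, on a log axis, with 1 point for the WT library (circle) and 1 for the Kai1 KO library (diamond), ordered by the WT level. There are no error bars, since each genotype has 1 library. Cxcl12 leads in both libraries, Cxcl14 moves from 0.416 to 20.3 RPKM, and 9 chemokines sit on the line of genes listed at 0 in Kai1 KO only.

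A chemokine at 0 in only 1 library was at 0 in the Kai1 KO library in 9 of 9 cases, and 84.7% of the 1746 symbols at 0 in only 1 library were at 0 in that library. Among 11 chemokines above 0 and below 1 RPKM in WT, 7 were listed at 0 in Kai1 KO, where 32.0% of all such symbols were. Among 15 chemokines at 1 RPKM or more in WT, 2 were listed at 0 in Kai1 KO (Pf4 and Cxcl5), where 0.487% of all such symbols were. Of 17 chemokines above 0 in Kai1 KO, 0 were listed at 0 in WT, where 2.01% of all such symbols were. A value of 0 does not show that a transcript was absent, and the RPKM that 3 reads would give is stated below for the members at 0 in Kai1 KO and at 0.1 RPKM or more in WT.

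The CXC chemokines with an ELR motif before the first cysteine, which attract neutrophils and are mostly known as ligands of Cxcr2, lie with Pf4 in 1 cluster on chromosome 5. Promoter sequences were found for 27 of the 38 chemokines in the RefSeq table of GRCm38.p6. The table held no entry for Ccl2, Ccl4, Ccl5, Ccl7, Ccl11, Ccl24, Ccl26, Cxcl5, Cxcl11, Cxcl16 or Cxcl17. The 120 bases before the start of 4 cluster members are shown because Cxcl1 and Cxcl15, the members of this cluster that rose, lie on the plus strand with Cxcl2 and Cxcl3, and 3 of the 4 share a promoter element. Capitals mark matches to the NF-kB consensus, where a plus-strand and a minus-strand match overlap, and to TATAAA, the TATA box, searched on both strands. The windows are chr5:90891125-90891244 for Cxcl1, chr5:90903779-90903898 for Cxcl2, chr5:90785981-90786100 for Cxcl3 and chr5:90794414-90794533 for Cxcl15, each 5′ to 3′.
Cxcl1: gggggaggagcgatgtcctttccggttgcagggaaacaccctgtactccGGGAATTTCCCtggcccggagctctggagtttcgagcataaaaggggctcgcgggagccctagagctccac
Cxcl2: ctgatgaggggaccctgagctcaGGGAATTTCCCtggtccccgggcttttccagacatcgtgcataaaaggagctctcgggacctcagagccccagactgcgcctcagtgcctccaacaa
Cxcl3: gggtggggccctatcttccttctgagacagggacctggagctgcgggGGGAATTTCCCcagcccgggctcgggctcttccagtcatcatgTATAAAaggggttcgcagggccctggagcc
Cxcl15: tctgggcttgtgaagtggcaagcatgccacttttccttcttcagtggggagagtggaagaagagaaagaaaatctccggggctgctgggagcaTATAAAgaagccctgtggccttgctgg

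The same 11 letters matched the NF-kB consensus in Cxcl1, Cxcl2 and Cxcl3, from 71, 97 and 73 bases before the start. TATAAA began 30 bases before the start in Cxcl3 and 27 bases before it in Cxcl15. Over the 250 bases before the start, the NF-kB consensus was found in 6 of the 27 chemokines (Ccl9, Ccl20, Cxcl1, Cxcl2, Cxcl3 and Cxcl10) and in 3.9% of 32851 promoter windows of that length. TATAAA was found in 11 of the 27 and in 12.4% of these windows, on either strand and at any position within the 250 bases. A chemokine was counted if any of its promoter entries matched, while the windows were counted singly, so these shares have unlike units. A match describes letters and does not show a factor at the site. The 6 chemokines with an NF-kB match included 1 that rose (Cxcl1), 1 that fell (Ccl20), 1 within 2-fold (Ccl9) and 3 that were not kept.

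Cxcl1, the main neutrophil attractant of this set, lies at chr5:91320267-91322141 on NCBI37 (mm9), the build of the deposited values. It was at 64.6 RPKM in WT and 153.5 in Kai1 KO, from about 1439 and 3087 reads. This was 2.38-fold higher in Kai1 KO (2.23 to 2.53), a log2 ratio of 1.25. With both libraries scaled to Gapdh the log2 ratio was 0.75, which is within 2-fold. The neighbour Cxcl2, with the same promoter match, stood far below it, at 0.296 RPKM in WT from about 14 reads and listed at 0 in Kai1 KO, where 3 reads would give 0.0689. Cxcl3 was at 0.0944 in WT, from about 2 reads, and listed at 0 in Kai1 KO. Of these 3 genes with the same match, Cxcl1 was above 1 RPKM in both libraries and the others in neither.

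Cxcl15, also called lungkine and best known from lung epithelium, rose from 0.614 RPKM to 8.76, from about 35 and 451 reads. The rise was 14.3-fold (10.1 to 20.8), a log2 ratio of 3.63. Cxcl5, another neutrophil attractant and the first gene of the cluster, moved the other way. It was at 1.23 RPKM in WT from about 53 reads and listed at 0 in Kai1 KO, where 3 reads would give 0.0772. Its mean RPKM was below 1, so that it is not among the 3 that fell. Ppbp, the platelet basic protein gene, was listed at 0 in both libraries. Of the 6 ELR genes, 2 were thus kept and both rose, and 3 were listed at 0 in Kai1 KO only. The filter shapes this count, since Cxcl15 passed it through its Kai1 KO level and Cxcl5 missed it through its 0. Over all genes kept 7.98% rose, and 1479 of all 20211 symbols were listed at 0 in Kai1 KO only.

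**Figure D2:**
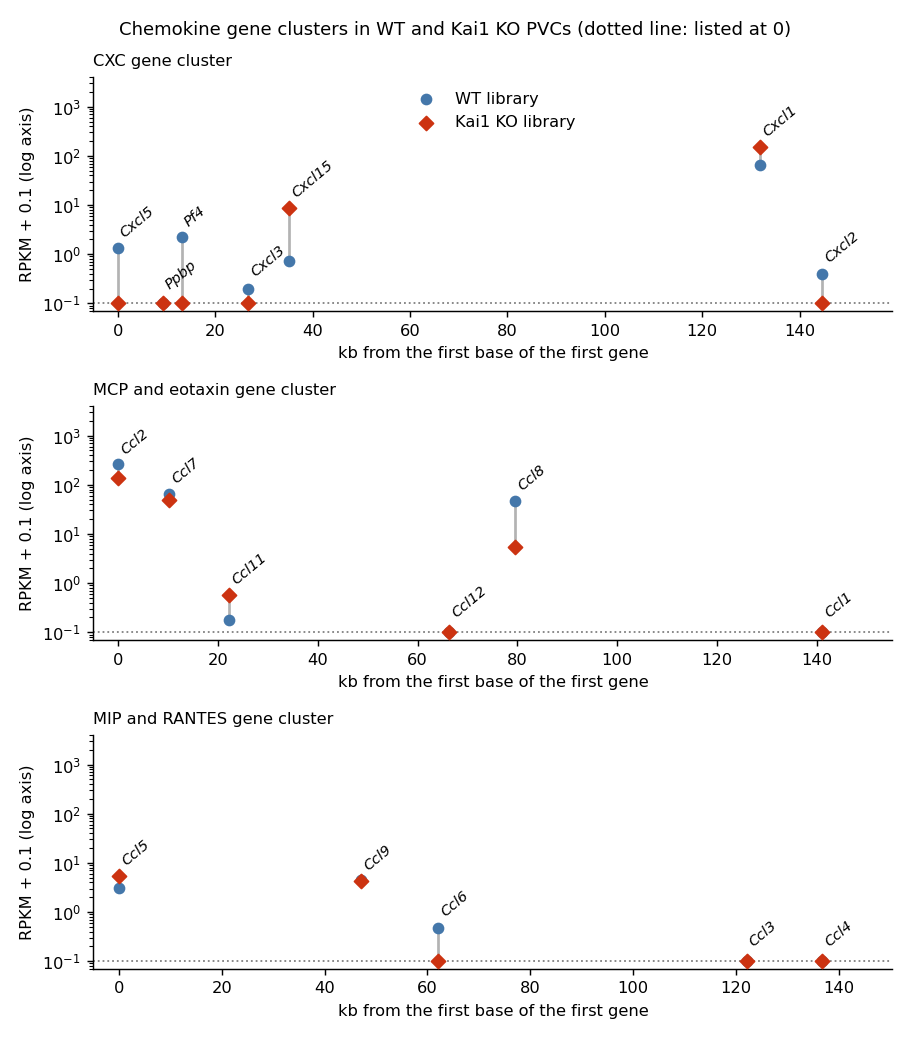
RPKM + 0.1 on a log axis against the distance in kb from the first base of the first gene, for 3 chemokine gene clusters, with a circle for the WT library and a diamond for the Kai1 KO library. In the CXC cluster Cxcl1 and Cxcl15 are higher in Kai1 KO, while the Kai1 KO points of Cxcl5, Pf4, Cxcl3 and Cxcl2 lie on the line of genes listed at 0; in the MCP cluster Ccl8 moves most.

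Pf4, platelet factor 4, is a product of megakaryocytes that binds heparin and inhibits angiogenesis, and macrophages are known to express it too. It was at 2.19 RPKM in WT from about 25 reads and listed at 0 in Kai1 KO, where 3 reads would give 0.291. Its log2 ratio depends on the constant added, so no fold is given. Of 7 platelet and megakaryocyte markers, 2 were kept, of which Itga2b was at 3.31 and 1.57 RPKM and Gp1bb at 123.8 and 117.2, and the defining Gp6 and Gp9 were listed at 0 in both libraries. The 7 markers summed to 127.3 RPKM in WT and 119.2 in Kai1 KO.

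Cxcl14, a chemokine of epithelia and fibroblasts that is conserved across vertebrates, lies at chr13:56390008-56397912 on the minus strand, away from the clusters. It was at 0.416 RPKM in WT and 20.3 in Kai1 KO, from about 20 and 881 reads. The Kai1 KO library was 48.9-fold higher (31.4 to 80.3). Its log2 ratio on the RPKM + 0.1 scale was 5.31, and 3.91 with 1 RPKM added in place of 0.1. In the WT library 43.9% of all symbols were below it, and in the Kai1 KO library 84.7%. Cxcl17, a chemokine of mucosal epithelia, was at 0.182 RPKM in WT from about 3 reads and at 1.81 in Kai1 KO from about 27, with a mean just under 1. Its ratio was 9.98 (3.07 to 51.4), a wide interval that the WT reads set. Because Cxcl14, Cxcl15 and Cxcl17 are known from epithelia, 8 epithelial markers were looked up. None was kept. Epcam, Krt5 and Grhl2 were listed at 0 in both libraries, and Krt14 was at 0.0695 RPKM in WT and 0.641 in Kai1 KO. Cdh1 was at 0.593 and 0.391 and Ovol1 at 0.0625 and 0.0139, and Krt8 and Krt18 were at 0.0211 and 0.0282 in WT and listed at 0 in Kai1 KO. The 8 summed to 0.774 and 1.05, and Krt14 alone was higher in Kai1 KO.

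Cxcl12 was the most abundant chemokine of both libraries, at 359.7 RPKM in WT and 292.4 in Kai1 KO. It lies at chr6:117118553-117131385, and 98.4% and 98.0% of symbols were below it. Its log2 ratio was -0.30, and the Kai1 KO level was 0.803 to 0.823 of the WT level by counting error. Scaling moved it beyond this interval. The log2 ratio was -0.38 with the median set to 0, -0.43 with upper quartiles made equal and -0.80 scaled to Gapdh. Cxcl13, which attracts B cells, was listed at 0 in both libraries. The interferon-induced ligands of Cxcr3, which attract activated T cells, were at or near 0 throughout. Cxcl9 was at 0.0125 RPKM and Cxcl11 at 0.0963 in WT, both were listed at 0 in Kai1 KO, and Cxcl10 was listed at 0 in both. Cxcl10 and Cxcl11 overlap genes on the opposite strand (Art3 and Gm2673), and the sources used here do not say whether reads were counted by strand.

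Cx3cl1, or fractalkine, and Cxcl16 are the members made as membrane-bound proteins that can be shed. Cx3cl1, at chr8:97295909-97306323, was at 1.86 RPKM in WT and 5.30 in Kai1 KO, from about 171 and 440 reads. The Kai1 KO library was 2.85-fold higher (2.38 to 3.42), a log2 ratio of 1.46, or 0.97 scaled to Gapdh, which is within 2-fold. Cxcl16 was at 7.12 RPKM in WT and 7.08 in Kai1 KO, a ratio between 0.875 and 1.13. It overlaps Zmynd15 on the opposite strand, which was at 0.104 and 0.0432 RPKM.

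The 21 CC genes include the monocyte attractants, the MCP group, in 1 cluster on chromosome 11. Ccl2 (MCP-1), at chr11:81849073-81850955, was at 261.8 RPKM in WT and 138.9 in Kai1 KO, from about 4748 and 2274 reads. The WT level was 1.79 to 1.98 times the Kai1 KO level by counting error, a log2 ratio of -0.91, which did not pass 2-fold. It passed 2-fold with the upper quartiles made equal, at -1.04, and scaled to Gapdh, at -1.41. Ccl2 stood below Cxcl12 alone in WT, and below Cxcl12 and Cxcl1 in Kai1 KO. Ccl7 (MCP-3), the next gene in the cluster, was at 66.1 and 48.8 RPKM, a log2 ratio of -0.44, from about 1175 and 782 reads.

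Ccl8 (MCP-2), at chr11:81928687-81930301 and 79.6 kb beyond the start of Ccl2, had the largest fold difference of the falling chemokines above 0 in both libraries. It was at 47.1 RPKM in WT and 5.34 in Kai1 KO, from about 434 and 44 reads. Its level was 8.82-fold lower in Kai1 KO (6.52 to 12.4), a log2 ratio of -3.12. In WT 92.0% of symbols were below it and in Kai1 KO 68.7%. Between Ccl7 and Ccl8 lies the eosinophil attractant gene Ccl11, which was at 0.0776 RPKM in WT and 0.473 in Kai1 KO. These values rest on about 2 and 11 reads, and their ratio was 6.10 (1.33 to 56.6). The other MCP and eotaxin genes Ccl12, Ccl24 and Ccl26 and the neighbour Ccl1 were listed at 0 in both libraries. The 3 MCP genes kept were all below WT, by log2 ratios from -3.12 to -0.44, and 1 of them fell by more than 2-fold.

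Macrophages are known to make Ccl8, Pf4 and Ccl6, so 16 macrophage markers were read beside these values. Of the 5 kept, 4 fell: Csf1r was at 11.7 and 2.66 RPKM, Fcer1g at 11.3 and 2.47, Tyrobp at 10.4 and 2.37 and Lyz2 at 3.44 and 1.09. Cd14 rose, from 1.98 to 10.3. Among all genes kept, 7.81% fell and 7.98% rose. The defining markers Emr1 (Adgre1), Aif1, C1qa and C1qb were listed at 0 in both libraries, and Ptprc, the pan-leukocyte gene Cd45, was at 0.0407 and 0.00697. The 16 markers summed to 41.1 RPKM in WT and 19.7 in Kai1 KO. Their part in the Ccl8, Pf4 and Ccl6 values was not tested, and in bulk RNA fewer cells of a type and less RNA per cell cannot be told apart. Of 10 endothelial markers, 7 were listed at 0 in Kai1 KO only. All 7 were below 1 RPKM in WT, and 32.0% of all symbols above 0 and below 1 RPKM in WT were listed at 0 in Kai1 KO. Flt1 was the one endothelial marker kept, at 1.23 and 1.01 RPKM, and the sum of the 10 was 2.52 and 1.01. Of 8 T cell markers none was kept, with a sum of 0.0586 and 0.153 RPKM. Of 7 neutrophil markers listed, 2 were kept and 1 fell (Mpo, at 1.71 and 0.782). S100a8, the other one kept, was at 1.61 and 2.18, Elane was listed at 0 in WT and at 0.417 in Kai1 KO, Csf3r was at 0.147 and 0.269, and S100a9 was listed at 0 in both.

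The MIP and RANTES genes, whose products attract monocytes and T cells, form another chromosome 11 cluster. Ccl5 (RANTES) was at 2.98 RPKM in WT and 5.36 in Kai1 KO, from about 29 and 48 reads, a log2 ratio of 0.82 and a ratio between 1.13 and 3.02. Ccl9 was at 4.33 and 4.22, a ratio between 0.836 and 1.14. Ccl6 was at 0.383 in WT from about 14 reads and listed at 0 in Kai1 KO, where 3 reads would give 0.0906, and Ccl3 and Ccl4 were listed at 0 in both. Neither gene kept passed 2-fold.

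Ccl20, the ligand of Ccr6 that attracts dendritic cells and lymphocytes, lies at chr1:83113341-83115742. It was at 3.89 RPKM in WT and 1.12 in Kai1 KO, from about 141 and 37 reads. The Kai1 KO library was 3.47-fold lower (2.38 to 5.08), a log2 ratio of -1.71. Ccl17, a ligand of Ccr4, lies near Cx3cl1 on chromosome 8 and was at 3.04 and 4.81 RPKM, a ratio between 0.953 and 2.66. Ccl22, the other Ccr4 ligand in that stretch, was listed at 0 in both libraries. Ccl25, a ligand of Ccr9 known from thymus and gut, was at 3.51 and 2.54, a ratio between 0.516 and 1.01. For Ccl17 and Ccl25 a difference was thus not detectable at this depth.

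Ccl27a, known from skin, was at 16.4 RPKM in WT and 13.6 in Kai1 KO, a log2 ratio of -0.27. Its near-identical copy Ccl27b was at 0.952 and listed at 0, from about 7 reads in WT, where 3 reads would give 0.476 in Kai1 KO. Both values are uncertain, since reads of the copies may have been split and each gene overlaps an interleukin 11 receptor gene on the opposite strand; Il11ra1, which overlaps Ccl27a, was at 28.6 and 30.6 RPKM. Ccl19, a ligand of Ccr7 with several near-identical copies in the mouse, was at 0.163 and listed at 0, where 3 reads would give 0.206 in Kai1 KO. Ccl28 and Xcl1 were listed at 0 in both libraries.

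**Figure D3:**
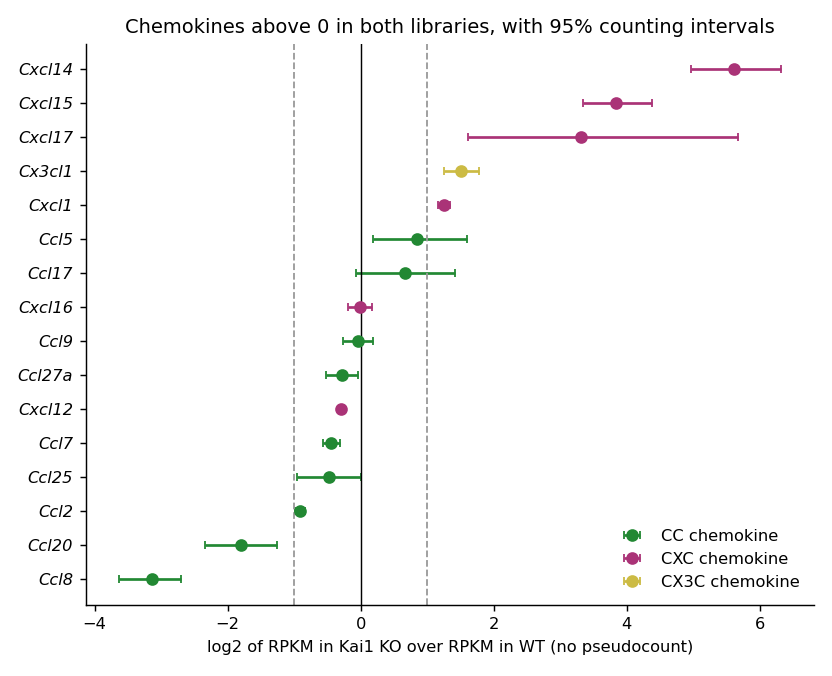
Log2 of the Kai1 KO level over the WT level, with no constant added, for the 16 chemokines above 0 in both libraries and at 1 RPKM or more in at least 1, coloured by family. Bars are 95% counting intervals from estimated reads and hold no variation between cultures, and dashed lines mark 2-fold. The intervals of Cxcl14, Cxcl15, Cxcl17, Cx3cl1 and Cxcl1 lie above the upper line, and those of Ccl8 and Ccl20 below the lower one.

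The receptors give the other side of this system. Of 24 chemokine receptor genes, 10 were listed at 0 in both libraries and 3 were kept. Of all 20211 symbols, 5423 were listed at 0 in both and 10068 were kept, of which 7.98% rose and 7.81% fell. Ackr3, an atypical receptor that takes up Cxcl12 without activating G proteins, rose from 63.4 RPKM to 162.6. The Kai1 KO library was 2.56-fold higher (2.48 to 2.65), a log2 ratio of 1.36, or 0.86 scaled to Gapdh. Cxcr4, the signalling receptor of Cxcl12, was listed at 0 in both. Cmklr1, the receptor of the leukocyte attractant chemerin, fell from 6.57 to 1.63, 4.04-fold lower (3.29 to 4.96). Cxcr2, known as the receptor of most ELR chemokines, was at 8.46 and 8.10, a ratio between 0.858 and 1.07. The receptors of the MCP group and of Ccl20, Ccr2 and Ccr6, were at 0.00211 RPKM or listed at 0 in WT, and listed at 0 in Kai1 KO.

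Regulators known to act upstream of chemokine genes were looked up next. Of 13 NF-kB components kept, none rose or fell, with a median log2 ratio of -0.01. Most genes did likewise: 8479 of all 10068 kept stayed within 2-fold, while 7.98% rose and 7.81% fell. NF-kB activity itself was not measured. The lowest ratio of the 13 was that of the inhibitor Nfkbia, at 25.6 RPKM in WT and 15.2 in Kai1 KO, a log2 ratio of -0.75. The highest was that of Nfkbiz, at 7.60 and 10.3, a log2 ratio of 0.43. Of the 13, 7 had a log2 ratio below 0. Of 13 interferon signalling genes kept, Irf7 fell from 10.0 to 1.03 RPKM, 9.73-fold lower (7.40 to 13.0), and Irf1 rose from 5.49 to 13.5, 2.47-fold higher (2.16 to 2.84). Scaled to Gapdh, the log2 ratio of Irf1 was 0.79.

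Of 9 receptors for IL-1, TNF, IL-6 and IL-17, cytokines that are known to induce chemokines, Il1r1 alone fell, from 1.74 RPKM to 0.470, and the other 8 stayed within 2-fold. Of 6 cytokines and colony factors kept, 2 fell and 1 rose. Over all genes kept, 7.81% fell and 7.98% rose. Csf1, the macrophage growth factor, fell from 427.6 to 169.3 RPKM, 2.53-fold lower (2.48 to 2.57), and Il6 fell from 5.11 to 1.27, 4.03-fold lower (2.70 to 6.21). Il33, an alarmin of the IL-1 family, rose from 1.40 to 13.4, 9.52-fold higher (7.73 to 11.9). Il1a was listed at 0 in both libraries, and Il1b and Tnf were listed at 0 in WT and at 0.166 and 0.106 RPKM in Kai1 KO.

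**Figure D4:**
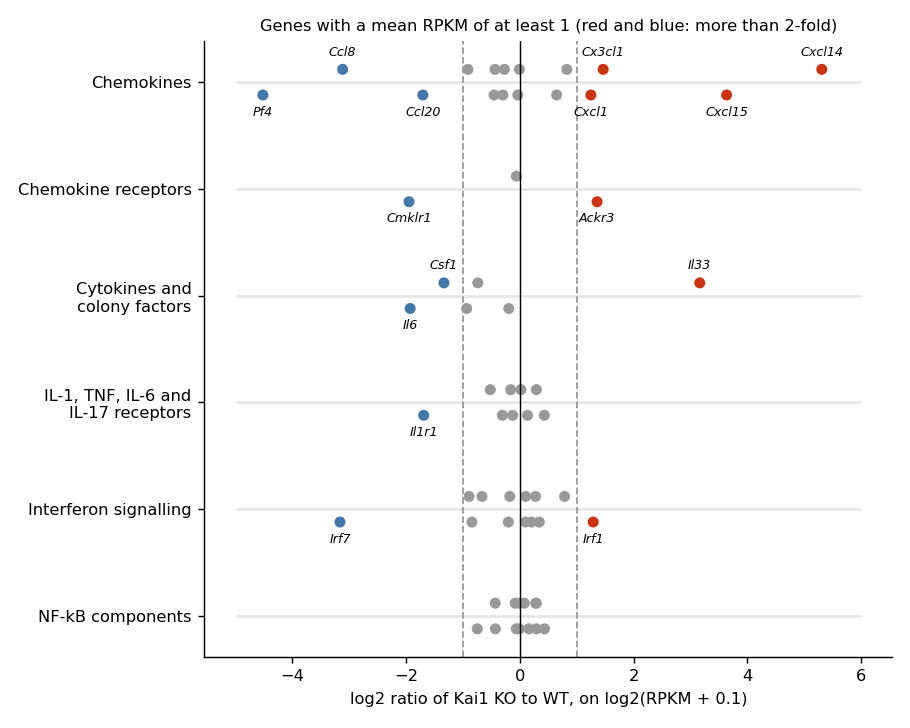
Log2 ratio of Kai1 KO to WT, on log2(RPKM + 0.1), of every gene kept in 6 lists, with 1 point per gene, red above 2-fold higher and blue above 2-fold lower (dashed lines). Points carry no error, since each genotype has 1 library, and Pf4, listed at 0 in Kai1 KO, is placed by the constant added. The chemokines spread from Pf4 and Ccl8 to Cxcl14. The 13 NF-kB components all lie between the lines, where 8479 of all 10068 genes kept would also lie.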

How the data were processed

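RNA of primary aortic PVCs was sequenced from 1 WT and 1 Kai1 KO library. The authors aligned reads to mm9 with TopHat2 2.0.9 and Bowtie, with a segment length of 21 and up to 2 mismatches, and deposited 1 RPKM value per gene and library. The submitters' processing notes also name Cufflinks. Total reads, strand of counting and library type are not given in the sources used here.

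The 38 rows with no symbol were dropped, and rows sharing a symbol were averaged. Ratios used a pseudocount of 0.1 RPKM. Reads were estimated from RPKM steps with GENCODE M1 transcript lengths and a fragment of 200 bases. Of 527 and 316 low values, 65.7% and 59.8% lay within 0.15 of a whole read, so read numbers are rough. The script was tested on simulated data.

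Members, lists and the 2-fold rule were chosen with earlier results of these data known. Values are given for chemokines at 1 RPKM or more in either library, or at 0 in 1 and at 0.1 or more in the other, with the remainder in brief. From other lists the genes named were up to 4 per list that passed 2-fold, besides receptors at 1 RPKM or more. The chemokine neighbours, markers and regulators named beyond this rule (among them Nfkbia, Ccr2, Ccr6 and Cxcr4) were chosen after their values were seen. Positions are NCBI37 and 37 of 38 members had one. Python 3.11.15, numpy 2.4.6, pandas 2.3.3, scipy 1.17.1 and matplotlib 3.10.9 were used.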

Additional observations from a re-analysis of the deposited data

How the results depend on the processing

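No paired analysis was possible because there is just 1 library per genotype, and leaving out a replicate was not possible for the same reason. The other alternatives were pseudocounts of 1 and 0.01 RPKM, 3 other scalings, other filters on mean RPKM, the largest row of a repeated symbol, and estimated reads. Of 189 recomputed ratios, of 18 chemokines and 9 other genes, 157 moved less than the counting interval, 32 moved further, 7 crossed 2-fold and 0 changed sign. These counts include settings that could move little. The largest row of a repeated symbol left each ratio as it was, and estimated reads restate the same RPKM. Another pseudocount cannot change the sign of a ratio. The 0 changes of sign thus bear mainly on the 3 other scalings. Scaled to Gapdh, 1856 of all genes kept fell and 278 rose, so that 87.0% of the genes that passed 2-fold were lower, against 49.5% as deposited. Of the chemokines 2 rose and 4 fell under this scaling. Among the other lists, 0 receptors rose, 1 NF-kB component fell, 4 interferon signalling genes fell and 0 rose, and 4 cytokines fell. With upper quartiles made equal, 62.2% of the genes that passed 2-fold were lower and 2 interferon signalling genes fell. Without a filter, 1878 of all 20211 symbols fell and 1205 rose (60.9% lower), and of the 38 chemokines 8 fell and 6 rose. In the same setting 3 receptors fell and 2 rose, and 3 cytokines fell and 3 rose. Genes at 0 in 1 library enter here. With a mean RPKM of at least 5, 6518 genes were kept, of which 350 fell and 511 rose. In that setting 1 chemokine fell and 2 rose, and 0 chemokine receptors fell. Of the IL-1, TNF, IL-6 and IL-17 receptor list 0 genes fell, and 1 cytokine fell. With 1 RPKM added, Il1r1 had a log2 ratio of -0.90 and 0 genes of its list fell. The causes were not tested, apart from the number of genes tested under the filters. Depth limits the chemokines below 1 RPKM, which rest on few reads.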
